A study of Drosophila melanogaster with 2 samples.

Results

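The cuticle protein gene families described here are the protein-coding genes of the Ensembl annotation of the fly genome whose symbol starts with Cpr and a digit, Lcp, Twdl or Ccp84, a choice by name that used no measured value. The rule found 117 of 13968 protein-coding genes, of which 70 were Cpr, 25 Twdl, 15 Lcp and 7 Ccp84 genes. The samples were whole wandering larvae of the third instar of Drosophila melanogaster, male and female pooled, of unstated age. They came from 1 transgenic line, GATAd-GFP, that stably makes the transcription factor GATAd with green fluorescent protein fused to its C-terminal end. DNA bound by the fusion protein was precipitated with an antibody against the tag and sequenced (ChIP-seq). Both libraries, biological replicates 2 and 3, form 1 group, GATAd-GFP larvae, and every value below refers to the tagged protein made from the transgene and not to the untagged protein. Nothing in the design varies a condition, so the cuticle genes are set against all protein-coding genes of the same lists, without a test, because neighbouring genes share chromatin and peaks.

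Insect cuticle is a layered extracellular matrix of chitin fibres and proteins that the epidermis secretes anew at each moult and stage. Cpr proteins carry the Rebers and Riddiford chitin-binding domain, Lcp proteins are larval cuticle proteins that carry the same domain, Twdl (Tweedle) proteins are an insect cuticle family of their own, and the Ccp84 genes form a cuticle gene group inside the Antennapedia complex of homeotic genes. GATAd is a GATA zinc finger protein, and proteins of this class bind the word WGATAR, which is spelled AGATAA or AGATAG, and TGATAA or TGATAG. Wandering larvae have left their food shortly before they form a puparium, and the expression of the cuticle genes was not measured in these files.

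The data are lists of peaks on the genome build dm6. The IDR list, which keeps peaks reproducible between replicates, held 1205 peaks, and the lists of candidates from the pooled reads, from replicate 2 and from replicate 3 held 30000 each. A candidate list is meant to contain background beside true sites, so a candidate near a gene is not by itself shown to be a bound site. The signal of a peak is the authors' own value on a scale that is not stated, so it is compared within a list only. The IDR peaks were the 1205 strongest pooled candidates, with signals of 43.9 and above, while the weakest pooled candidate had 13.4. In a whole larva, few cells with a bound site and weak binding in many cells cannot be told apart.

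Sequence around the pooled summits of named genes was read from build dm6 where 60 bases on either side were clear of annotated untranslated regions. On the arms used for this, it gave 13 distinct windows at 14 genes. Shown are the 4 of these windows with the highest signal and the highest of the Twdl and Ccp84 families. All their summits lie between genes, and the windows are on the strand of the gene, with GATA or its complement TATC in capitals. The 4 highest are those of Cpr62Ba (chr3L:1831900-1832020, minus strand), Cpr72Eb (chr3L:16364227-16364347, plus strand), Cpr76Bd (chr3L:19532442-19532562, plus strand) and Cpr35B (chr2L:14425807-14425927, minus strand). The Twdl window is that of TwdlR (chr3R:26634804-26634924, plus strand), and the Ccp84 window, which Ccp84Ad shares with Ccp84Ae, is given for Ccp84Ad (chr3R:6692469-6692589, plus strand). The last part of the TwdlR window, with its TATC, lies in the gene, which starts at position 26634885.
Cpr62Ba: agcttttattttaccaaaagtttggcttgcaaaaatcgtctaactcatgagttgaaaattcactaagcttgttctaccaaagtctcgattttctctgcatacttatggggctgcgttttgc
Cpr72Eb: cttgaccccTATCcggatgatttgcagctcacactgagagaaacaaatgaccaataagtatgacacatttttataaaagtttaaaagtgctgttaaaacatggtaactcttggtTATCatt
Cpr76Bd: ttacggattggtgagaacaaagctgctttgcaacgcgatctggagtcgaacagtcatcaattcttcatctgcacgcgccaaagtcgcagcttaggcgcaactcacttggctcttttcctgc
Cpr35B: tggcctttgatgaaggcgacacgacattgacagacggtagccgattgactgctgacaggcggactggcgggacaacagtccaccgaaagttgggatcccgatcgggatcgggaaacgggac
TwdlR: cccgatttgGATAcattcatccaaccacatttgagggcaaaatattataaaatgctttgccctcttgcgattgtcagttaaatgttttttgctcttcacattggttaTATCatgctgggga
Ccp84Ad: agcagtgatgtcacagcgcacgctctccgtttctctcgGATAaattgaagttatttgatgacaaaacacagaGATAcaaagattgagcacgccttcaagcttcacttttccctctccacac
Of the 6 windows shown, those of Cpr62Ba, Cpr76Bd and Cpr35B held 0 GATA words. Within 100 bp of the same summits, Cpr62Ba had a WGATAR word and Cpr76Bd and Cpr35B did not. The windows of TwdlR and Ccp84Ad held 2 GATA words but no WGATAR word, and that of Cpr72Eb held 1 WGATAR word. Over the 13 windows, 3 held a WGATAR word, 3 held GATA alone and 7 held 0 GATA words. Windows of this length were not read at other genes, so this tally has no share to be set against.

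No cuticle protein gene had an IDR peak with its summit within 1 kb of a transcription start site (TSS). The count was 0 of 117 cuticle genes (95% Wilson interval 0 to 3.18%, with a count of 0 allowing a share of up to 2.56%), against 1225 of 13968 protein-coding genes, or 8.77%. At the share of all genes, 10.3 of the cuticle genes would have had one. These intervals cover the counting of genes only. Cuticle genes are short and simple, with a median length of 983 bp, against 2164 bp for all genes, and 107 of 117 (91.5%) have a single annotated TSS, against 73.5% of all genes. Among genes with 1 TSS the counts were 0 of 107 cuticle genes and 698 of 10269 genes (6.80%). Among genes with 1 TSS and a length of at most 2 kb, they were 0 of 95 cuticle genes (0 to 3.89%) and 288 of 5805 genes (4.96%). The difference from other genes was thus smaller among genes of like structure.

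**Figure D1:**
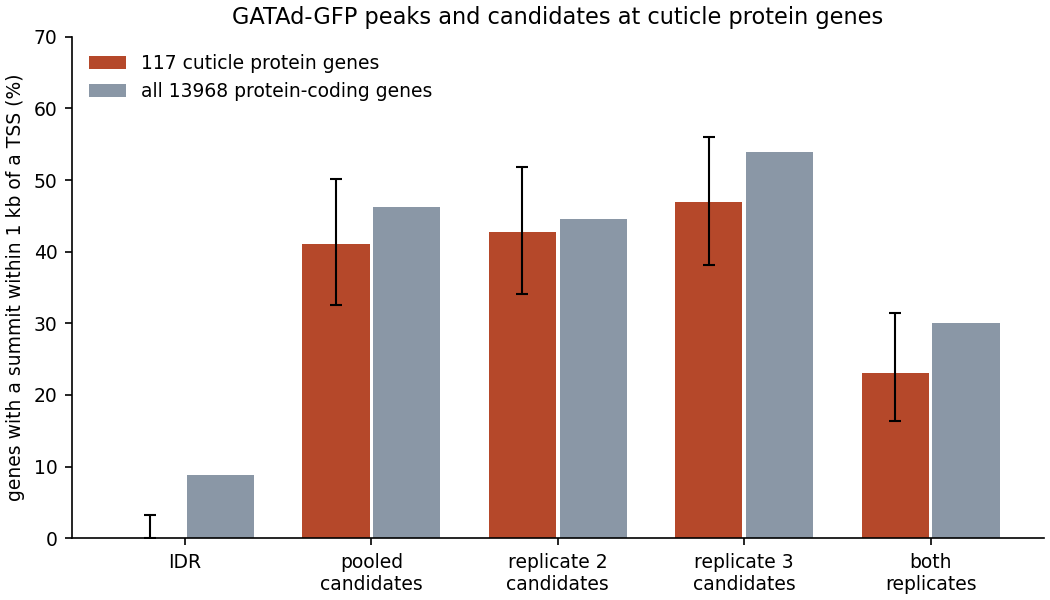
Share of genes (%) with a summit within 1 kb of a TSS in each list, for 117 cuticle protein genes (left bar of each pair) and all 13968 protein-coding genes (right bar); the lines on the cuticle bars are 95% Wilson intervals over genes. The cuticle genes are at 0 in the IDR list, and their intervals hold the share of all genes in the pooled and both single-replicate lists.

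IDR peaks lay around the cuticle genes at larger distances. Within 2 kb of a TSS there was an IDR peak for 2 cuticle genes (1.71%), against 10.7% of all genes. Within 5 kb there was one for 6 (5.13%), against 17.0% of all genes, and within 10 kb for 12 (10.3%), against 26.5%. At 50 kb the order was the other way, with 87 cuticle genes (74.4%), against 65.6% of all genes. Neighbours can share a peak in these counts, as Lcp1 to Lcp4 did with a peak 126 bp from the TSS of Mal-A5. Distinct peaks were not counted at these distances. The median distance from a cuticle gene to the nearest IDR peak was 30699 bp, against 28548 bp for all genes.

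The 6 cuticle genes nearest to an IDR peak were Cpr genes. Cpr47Eg had one at 1245 bp with a signal of 109, whose summit lay 7 bp from the TSS of CG9067. Cpr97Eb followed at 1276 bp, Cpr66Cb at 2343 bp, Cpr31A at 3207 bp, Cpr78Cc at 3985 bp and Cpr97Ea at 4628 bp. Cpr97Eb and Cpr97Ea shared the same peak. Of the 6 genes, Cpr31A and Cpr97Eb had no candidate within 1 kb in any list. For the Ccp84 genes the nearest was 8059 bp from Ccp84Ag, a peak with a signal of 84.7 that lay 79 bp from the TSS of lab, the homeotic gene labial.

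Candidates were present at cuticle genes about as often as at other genes. The pooled list had a summit within 1 kb of a TSS for 48 of 117 cuticle genes (41.0%, 95% Wilson interval 32.5 to 50.1%), against 46.3% of all genes. Replicate 2 had 50 (42.7%, 34.1 to 51.8%), against 44.6% of all genes, and replicate 3 had 55 (47.0%, 38.2 to 56.0%), against 53.9%. All 3 intervals hold the share of all genes. Among genes with 1 TSS the pooled shares were 38.3% of cuticle genes and 41.3% of all genes. With a length of at most 2 kb as well, they were 35.8% and 37.7%.

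Candidates of both replicates at the same gene were fewer. They were found for 27 cuticle genes (23.1%, 16.4 to 31.5%), against 30.0% of all genes, which the interval holds. Among genes with 1 TSS and at most 2 kb the shares were alike, at 21.1% of cuticle genes and 20.6% of all genes. Of the 50 cuticle genes with a candidate in replicate 2, 54.0% had one in replicate 3, against 67.3% for all genes and 60.2% for genes with 1 TSS. Candidates that overlapped each other between the replicates were found at 16 cuticle genes (13.7%), against 23.7% of all genes and 19.0% of genes with 1 TSS. All 3 candidate lists named 22 cuticle genes (18.8%), against 27.2% of all genes and 21.4% of genes with 1 TSS, and no list named 38 (32.5%), against 29.7% and 34.1%.

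The strongest candidates at the cuticle genes were weaker than those at other genes. Over the 48 cuticle genes with a pooled candidate, the strongest candidate of each had a signal between 13.5 and 34.9 with a median of 17.8, against a median of 21.5 over the 6467 genes of all kinds that had one and 20.1 over those with 1 TSS. The medians were 13.0 against 14.6 in replicate 2 and 9.40 against 11.8 in replicate 3. Within the whole lists the cuticle candidates were not at the weak end. The medians over all 30000 candidates, not 1 per gene, were 17.2 in the pooled list, 12.3 in replicate 2 and 8.77 in replicate 3. The strongest member, Cpr62Ba, was at rank 1840 of the 30000 pooled candidates. The share of cuticle genes therefore depended on how many candidates were kept. With the 5000 strongest pooled candidates it was 6.84%, against 19.9% of all genes, with the 10000 strongest 13.7%, against 27.3%, and with the 20000 strongest 30.8%, against 37.8%. Of the 1205 strongest candidates of replicate 2, the summits reached 2 cuticle genes, Cpr62Ba and Cpr73D (1.71%, against 7.97% of all genes), and of those of replicate 3 none (0, against 9.34%). The 5000 strongest candidates reached 9 cuticle genes in replicate 2 (7.69%), against 17.4% of all genes, and 5 in replicate 3 (4.27%), against 23.7%. The cuticle genes reached by both of these shorter lists at once numbered 0 (Wilson interval 0 to 3.18%), against 11.6% of all genes.

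**Figure D2:**
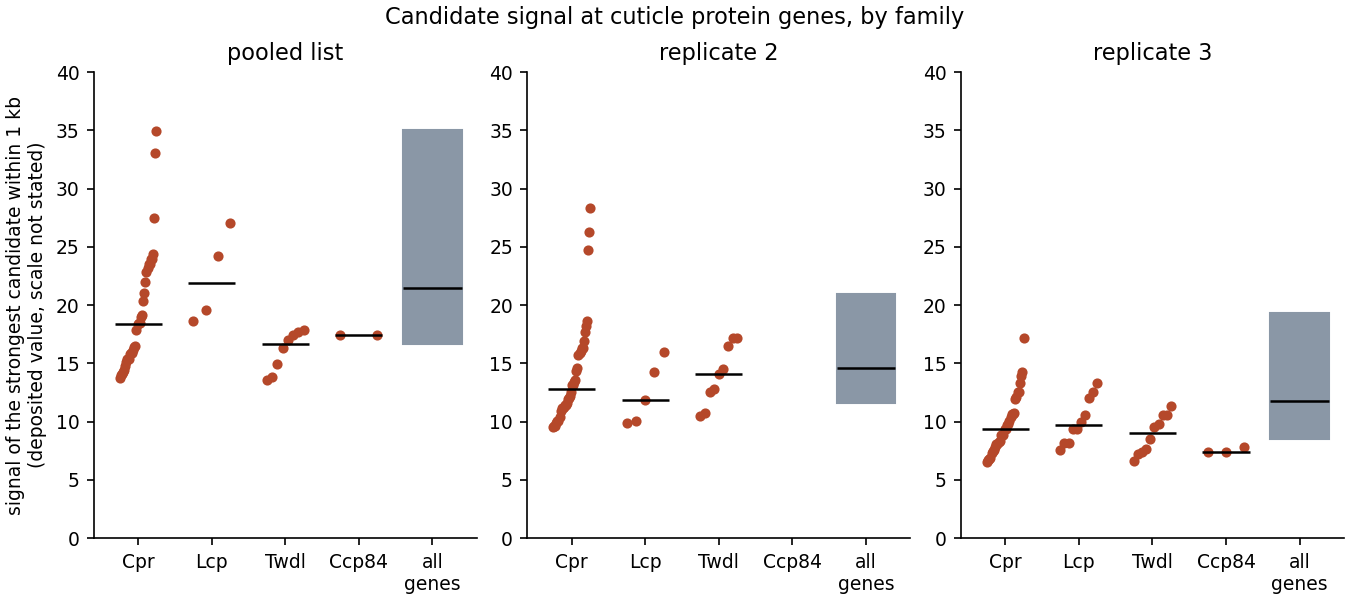
Signal (deposited value, scale not stated) of the strongest candidate within 1 kb of a TSS, 1 point per cuticle protein gene that has one, by family, in the pooled, replicate 2 and replicate 3 lists; the bars through the points are family medians and the grey box gives the interquartile range and median of all genes that have a candidate. Cpr62Ba is the highest point of the pooled list at 34.9, below the weakest IDR peak at 43.9, and no Ccp84 gene has a point in replicate 2.

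Among the Cpr genes, the chitin-binding family, Cpr62Ba had signals of 34.9 in the pooled list, 28.3 in replicate 2 and 8.4 in replicate 3. Its pooled summit lay 177 bp upstream of the TSS. The candidate was at rank 962 in replicate 2 and at rank 16835 in replicate 3, where the summit lay 84 bp downstream of the TSS. Cpr23B had 33.1, 24.8 and 9.4 in the same order of lists, with ranks of 1306 in replicate 2 and 12452 in replicate 3. Its pooled summit lay 528 bp upstream, but only 50 bp from the TSS of another gene, CG3119. Cpr73D had 27.5 in the pooled list and 26.3 in replicate 2, with a pooled summit nearer to another gene, 296 bp from the TSS of Ogdh. Its candidate in replicate 3, of signal 10.4, was another peak, 14921 bp from the pooled summit. Both Cpr62Ba and Cpr23B ranked higher in replicate 2 than in replicate 3.

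Of the other 9 genes of the top 12, 3 lacked a candidate in 1 replicate. Cpr72Eb had 24.4 in the pooled list and 18.2 in replicate 2, and Cpr76Bd had 23.9 and 15.8, but neither had a candidate in replicate 3. Cpr49Af had 23.5 in the pooled list and 12.5 in replicate 3 but none in replicate 2. Cpr49Ah had 24.0 in the pooled list and 17.2 in replicate 3, the highest value of any cuticle gene in that replicate, while its strongest candidate in replicate 2, of 9.6, was another peak 969 bp from the pooled summit. The remaining genes of the top 12, Cpr64Ab, Cpr35B, Cpr47Eb, Lcp1 and Lcp4, had overlapping candidates in all 3 lists. Over the family, 34 of 70 Cpr genes had a pooled candidate (48.6%), against 46.3% of all genes, 36 had one in replicate 2 (51.4%), against 44.6%, 32 in replicate 3 (45.7%), against 53.9%, and 20 in both replicates (28.6%), against 30.0%.

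The Lcp family fell into 2 parts by place. Lcp1, Lcp2, Lcp3 and Lcp4, neighbours on chromosome arm 2R, all had candidates in the pooled list and in both replicates. These were not always the same peaks. The strongest replicate 2 candidate of Lcp3 lay 1191 bp from its pooled summit and 1520 bp from the replicate 3 summit, and none overlapped between the replicates. The strongest replicate 3 candidate of Lcp2 lay 486 bp from its pooled summit and did not overlap that candidate. Lcp1 had signals of 27.0, 15.9 and 10.6 in the pooled, replicate 2 and replicate 3 lists, and Lcp4 had 24.3, 9.9 and 12.01. The strongest pooled summits of Lcp1 and Lcp4 lay in the gene bodies and not before them. That of Lcp1 was 462 bp downstream of the TSS in a coding exon, and that of Lcp4 was 614 bp downstream in the 3′ untranslated region. The pooled summit of Lcp2 was 487 bp downstream, also in the 3′ untranslated region, but that of Lcp3 was 251 bp upstream, between genes. The other 11 Lcp genes, 10 of them in a group on 3L, had no pooled candidate, so the family count was 4 of 15 (26.7%, 10.9 to 52.0%), against 46.3% of all genes. In replicate 2 the family had 5 of 15 (33.3%, 15.2 to 58.3%), against 44.6% of all genes, and in replicate 3 it had 10 of 15 (66.7%, 41.7 to 84.8%), against 53.9%, and each interval holds the share of all genes.

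The Twdl family had pooled candidates at 8 of 25 genes (17.2 to 51.6%), against 46.3% of all genes, with signals no higher than 17.9. TwdlR had 17.9 in the pooled list and, at another peak 991 bp away, 17.2 in replicate 2, with no candidate in replicate 3. Twdlbeta had 17.7 and, in replicate 3, 9.5, with none in replicate 2, and its summit lay 195 bp from the TSS of CG42531. Replicate 2 had candidates at 9 Twdl genes (20.2 to 55.5%), against 44.6% of all genes, and replicate 3 at 10 (23.4 to 59.3%), against 53.9%. Both lists had them at 2 Twdl genes, against 30.0% of all genes, which is above the Wilson interval of the family. Of the 25 Twdl genes, 24 have 1 TSS. The share of all genes with 1 TSS in both lists was 24.1%, which the interval of the family holds. TwdlD, in which dominant mutations change larval body shape, had a candidate in replicate 3 alone, with a signal of 11.4 at 538 bp downstream of the TSS. Of the 7 Ccp84 genes, Ccp84Ad and Ccp84Ae had a pooled candidate, which was 1 peak of signal 17.4 between them, 203 bp upstream of Ccp84Ad and 771 bp upstream of Ccp84Ae. The same pair had 7.4 in replicate 3, and no Ccp84 gene had a candidate in replicate 2.

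Most cuticle genes lie in clusters, here runs of at least 3 members with at most 20 kb between neighbours. The 15 clusters held 85 members. Inside them 31 of 85 genes had a pooled candidate (36.5%, 27.0 to 47.1%), against 17 of 32 outside them (53.1%, 36.4 to 69.1%), and the intervals overlap. The gap of -16.7 percentage points was -7.54 without the Lcp65Ag3 to Cpr65Az cluster and -8.84 among genes with windows at least 90% unique, as defined with that cluster. The order did not hold over the replicates, with 37 of 85 (43.5%) in clusters and 13 of 32 (40.6%) outside in replicate 2, and 39 of 85 in clusters and 16 of 32 outside in replicate 3. No IDR summit lay inside any of the 15 clusters or within 1 kb of their ends. These extended spans make 271 kb together. The density over the genome was 0.0900 per 10 kb, which gives few peaks in that length. Pooled candidates were not rare there, at 3.10 per 10 kb of extended span, against 2.24 over the genome, and the replicate lists had 3.43 and 2.81, against 2.24 in each.

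**Figure D3:**
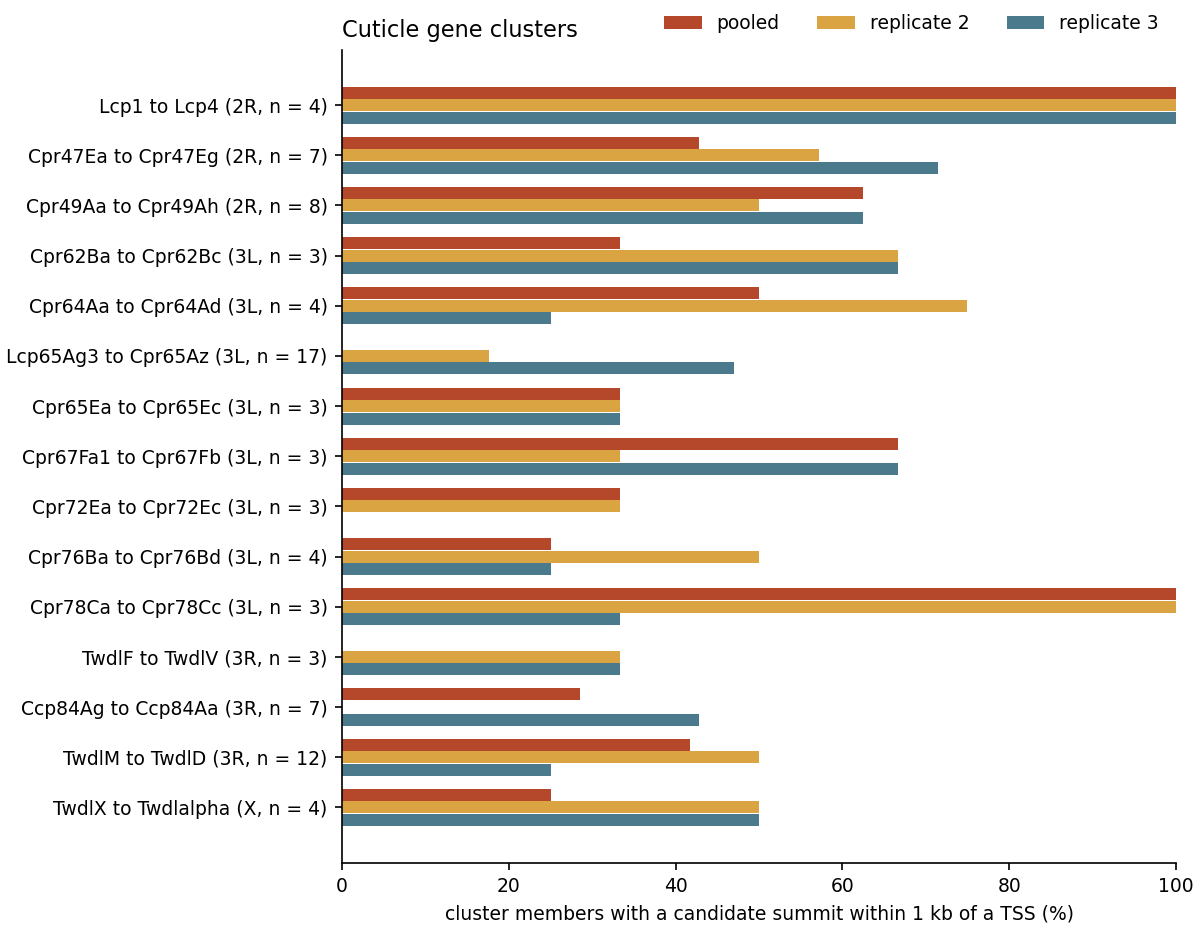
Share (%) of the members of each of the 15 cuticle gene clusters with a candidate summit within 1 kb of a TSS, in the pooled list (upper bar), replicate 2 (middle bar) and replicate 3 (lower bar); arm and number of members stand in brackets. All 4 genes from Lcp1 to Lcp4 have candidates in each list, while the 17 genes from Lcp65Ag3 to Cpr65Az have none in the pooled list.

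Counts in single clusters are small, and most of their intervals hold the 46.3% of all genes. The Lcp1 to Lcp4 cluster, 8.38 kb long, held 8 pooled candidates when 1 kb was added at each end. All 3 genes from Cpr78Ca to Cpr78Cc had a pooled and a replicate 2 candidate but 1 of the 3 had one in replicate 3. Among 8 genes from Cpr49Aa to Cpr49Ah, 5 had pooled candidates. In the largest Twdl cluster, from TwdlM to TwdlD on 3R, 5 of 12 genes had one (19.3 to 68.0%), and in that from TwdlF to TwdlV 0 of 3 (0 to 56.1%). The largest cluster, 31.2 kb on 3L from Lcp65Ag3 to Cpr65Az, holds 17 genes, 10 of them Lcp and 7 Cpr. None of the 17 had a pooled candidate within 1 kb (0%, which the Wilson interval puts at up to 18.4%), although 3 pooled candidates lay in the span or within 1 kb of its ends. Replicate 2 had candidates at 3 of the 17 and replicate 3 at 8, and a single gene, Lcp65Ag1, was in both. The highest value was 13.3 in replicate 3, a peak that reached both Cpr65Ax2 and Lcp65Aa. Lcp65Ag1, Cpr65Ax2 and Lcp65Aa were named after their values were seen. Without this cluster 48 of 100 cuticle genes had a pooled candidate, against 46.3% of all genes. The cluster was set aside after its values were seen, and leaving out genes without a candidate can only raise the share. The interval of the whole set (32.5 to 50.1%) already holds the 46.3%.

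The Lcp65A group has near-identical genes, and sequence that is repeated in the genome can lose reads when only uniquely placed reads are kept. How reads were placed is not given in the sources used here. Upstream sequence of Lcp65Ab1 and Lcp65Ab2 shows how alike neighbours can be. Both stretches are on the plus strand, chr3L:6149395-6149544 for Lcp65Ab1 and chr3L:6146524-6146673 for Lcp65Ab2, and end 3 bases and 0 bases before the TSS, with the base that differs in capitals.
Lcp65Ab1: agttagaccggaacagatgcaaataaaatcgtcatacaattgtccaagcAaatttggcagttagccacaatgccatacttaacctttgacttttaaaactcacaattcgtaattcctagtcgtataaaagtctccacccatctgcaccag
Lcp65Ab2: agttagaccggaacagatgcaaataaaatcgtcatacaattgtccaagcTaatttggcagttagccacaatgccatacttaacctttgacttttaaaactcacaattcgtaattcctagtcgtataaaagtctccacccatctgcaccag
The stretches were identical at 149 of 150 bases and held 0 GATA words.

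Uniqueness was measured as the share of 32-base words in the window of 1 kb on either side of the TSS that occur once in the assembly. It was 26.7% for Lcp65Ab1, 27.6% for Lcp65Ab2, 35.4% for Cpr65Ax1 and 36.2% for Cpr65Ax2. Windows under 90% were found at 15 of 117 cuticle genes (12.8%), against 704 of 13945 genes on the 6 main arms (5.05%), and they included 8 of the 17 genes of the Lcp65 cluster, 5 Twdl genes and 2 Ccp84 genes. None of these 15 cuticle genes had a pooled candidate (0 to 20.4%), against 19.3% of all genes with such windows, which the interval holds. Among windows at or above 90%, 48 of 102 cuticle genes had a pooled candidate (47.1%), against 47.8% of all genes. The other 9 genes of the Lcp65 cluster had windows at or above 90% and no pooled candidate either. In the replicate lists, 2 of the 15 had a candidate in replicate 2 (13.3%), against 16.5% of all genes with such windows, and 6 of the 15 in replicate 3, a higher share than the 24.0% of all genes with such windows, so the order of the pooled list was not that of replicate 3. The IDR count was 0 of 102 cuticle genes with windows at or above 90%, against 9.18% of all genes. The part of repeated sequence in the pooled counts was not tested.

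**Figure D4:**
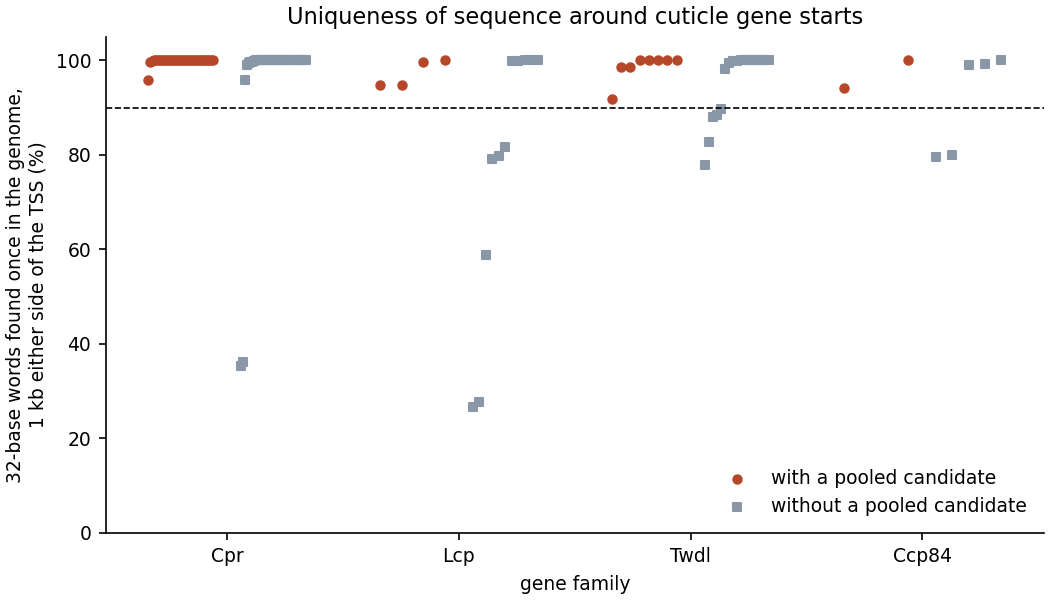
Share (%) of 32-base words within 1 kb of the TSS that occur once in the assembly, 1 point per cuticle protein gene, by family; circles on the left have a pooled candidate, squares on the right have none, and the dashed line is at 90%. All 15 genes below the line lack a pooled candidate, with Lcp65Ab1 lowest at 26.7%.

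Where candidates did occur, they lay farther from the start of a cuticle gene than of other genes. The strongest pooled summit was within 250 bp of a TSS for 10 of 48 cuticle genes (20.8%), against 46.6% of all genes with a candidate and 44.7% of those with 1 TSS. The replicates showed the same order, with 18.0% against 44.1% in replicate 2 and 16.4% against 47.2% in replicate 3. Median distances were 501 bp against 283 bp in the pooled list, 468 bp against 301 bp in replicate 2 and 631 bp against 270 bp in replicate 3. Counting over all members, any pooled summit within 250 bp was found at 13 of 117 cuticle genes (11.1%), against 25.3% of all genes, while within 5 kb it was found at 103 (88.0%), against 80.3%.

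**Figure D5:**
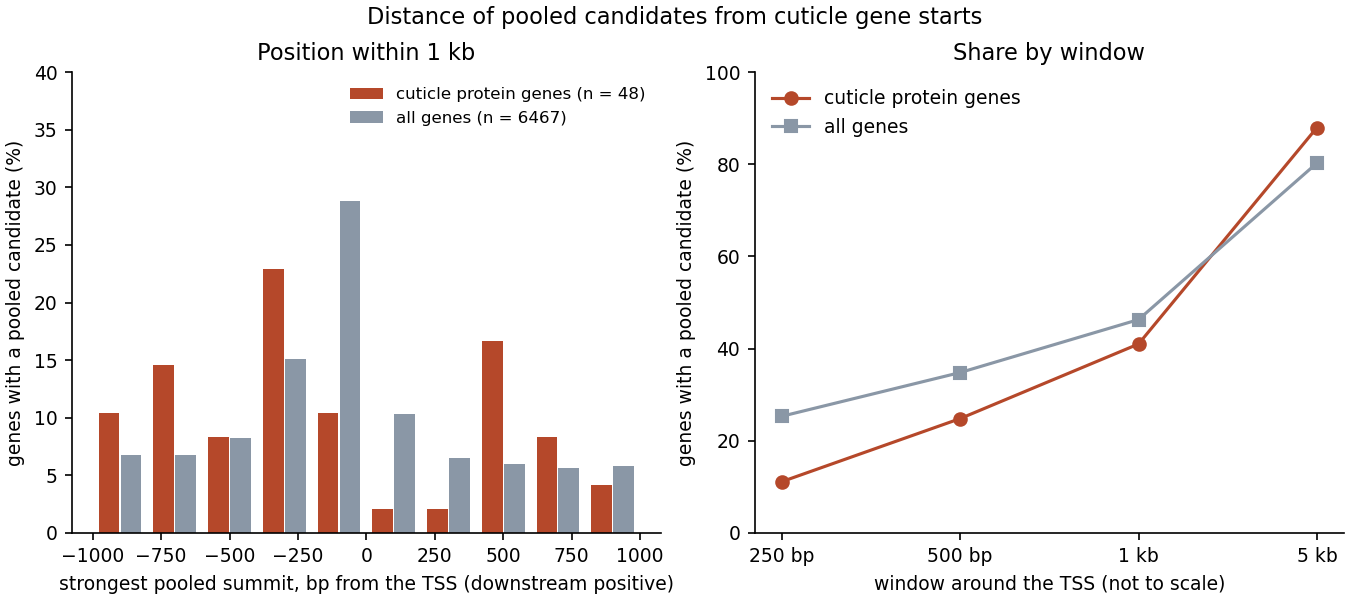
Left, distance (bp, downstream positive) of the strongest pooled summit from the TSS, as a share (%) of the 48 cuticle protein genes (left bar of each pair) and of the 6467 genes of all kinds (right bar) that have one, in bins of 200 bp; right, share (%) of all members and of all genes with a pooled summit within each window. All genes pile up just before the TSS and the cuticle genes do not, and the 2 curves cross between 1 kb and 5 kb.

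The candidates also lay in other parts of the genes. Of 67 distinct pooled candidates within 1 kb of a cuticle gene TSS, 36 were between genes (53.7%), against 34.0% of 7445 candidates near any gene. Another 10 lay in 3′ untranslated regions (14.9%), against 3.72%, and 3 in 5′ untranslated regions (4.48%), against 16.2%. The 3′ shares were 5.80% against 3.34% in replicate 2, a smaller difference, and 13.4% against 5.39% in replicate 3. The 5′ shares were 7.25% against 17.0% and 8.96% against 15.2%. In a gene of a median 983 bp, a window of 1 kb reaches past the end of the gene. For 42 of the 48 genes with a pooled candidate the nearest TSS to the summit was the gene's own, for 2 it was that of another cuticle gene and for 4 that of another gene.

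A smaller share of cuticle promoters than of all promoters held a GATA word. In the 250 bases before to 50 after the most upstream TSS, searched on both strands, a WGATAR word was present at 35 of 117 cuticle genes (29.9%, 22.4 to 38.7%), against 46.7% of all genes. GATA alone, which every WGATAR word contains, was present at 70.9%, against 87.0%. The word TATCGATA, the DNA replication-related element that also contains GATA on its other strand, was present at 1 cuticle gene (0.855%), against 9.36% of all genes, and GAGAG, a word of GAGA factor, at 30.8%, against 29.7%. Cuticle promoters were richer in G and C, with a median of 44.0%, against 38.0%. Among promoters within 2 percentage points of the cuticle median, 7 of 25 cuticle promoters (28.0%, 14.3 to 47.6%) had a WGATAR word. The share was 44.0% of 1956 promoters of all genes, which the interval holds. By family, 7 of 15 Lcp promoters had one (46.7%), 8 of 25 Twdl, 20 of 70 Cpr (28.6%) and 0 of 7 Ccp84.

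The word was about as frequent in promoters of cuticle genes with a candidate as in those without. A WGATAR word was present in the promoter of 14 of the 48 cuticle genes with a pooled candidate (29.2%) and of 21 of the 69 without one (30.4%). Around the summits themselves, within 100 bp on either side, it was present at 20 of 47 distinct pooled candidates of the cuticle genes (42.6%, 29.5 to 56.7%), against 35.5% of 5123 candidates of all genes and 40.9% of 785 IDR peaks near any gene. GATA was at 39 of the 47 (83.0%, 69.9 to 91.1%), against 75.2% of the candidates of all genes and 80.6% of the IDR peaks. TATCGATA was at 0 of the 47, against 3.77% of the candidates of all genes and 8.54% of the IDR peaks. A match is a run of letters and not a site.

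Genes that act on the cuticle but lie outside the naming rule were counted beside the families. An IDR peak was found at 0 of 17 other cuticle proteins such as Edg78E and resilin (0 to 18.4%), and at 0 of 32 genes of chitin synthesis, cuticle assembly and tanning (0 to 10.7%), against 8.77% of all genes, which both intervals hold. Pooled candidates were found at 10 of the 17 (58.8%) and at 17 of the 32 (53.1%), against 46.3% of all genes. The highest of them, chosen after the values were seen, was at ple, the tyrosine hydroxylase of the tanning pathway, with signals of 32.9 in the pooled list, 28.7 in replicate 2 and 8.5 in replicate 3. Like Cpr62Ba, it stayed below the weakest IDR peak.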

How the data were processed

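ChIP-seq peaks of 2 biological replicates of GATAd-GFP larvae were used as deposited by the authors on build dm6: candidates of each replicate, of the pool, and the IDR list. The signal is the authors' value in column 7 of each deposited list, enrichment over a shared control on a scale that is not stated. Which aligner, peak caller and IDR threshold were used is not given in the sources used here; read depth is unknown, and the control libraries were not analysed here. Because the lists share a control, and IDR peaks are drawn from candidates, they are not independent. Lists on dm3 were not used.

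Genes and TSSs came from Ensembl release 115 of the same assembly, and sequence from the RefSeq copy of Release 6. A summit counted for every gene with a TSS within 1 kb. Shares have Wilson intervals (95%) over genes, which cover counting only, and no p-value was computed. Genes were named as the 12 highest by pooled signal, the 2 highest per family, members with an IDR summit within 5 kb, the 2 highest and both end genes per cluster, and genes nearest to IDR peaks by a cluster. Members and lists were chosen with earlier results of these data known. One of 18 symbols of the other cuticle proteins was not in the annotation. Placement was tested on simulated data. Python 3.11.15, numpy 2.4.6, pandas 2.3.3 and scipy 1.17.1 were used. Alternatives covered the window, the TSSs, the lists, each replicate alone and, chosen after seeing the data, sequence uniqueness, GC content and the Lcp65 cluster.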

Additional observations from a re-analysis of the deposited data

How the results depend on the processing

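Values are cuticle genes minus all genes in percentage points, or clustered minus other cuticle genes. Over 48 alternatives, 31 kept the cuticle share or median within the range around its first value, 12 left it in the same direction and 5 turned round. The IDR difference (-8.77) was negative under all 11, at -11.9 with a 5 kb window. With 1 replicate no IDR list exists, and the 1205 strongest candidates of the other stood in for it, at -9.34 to -6.26. The pooled difference (-5.27) was -14.2, -9.97 and 7.71 with windows of 250 bp, 500 bp and 5 kb, -13.0, -13.6 and -6.98 for the 5000, 10000 and 20000 strongest candidates, and 1.70 without the Lcp65Ag3 to Cpr65Az cluster, an alternative chosen after seeing the data; it ranged from -6.92 to -1.86 with 1 replicate left out. The difference for candidates in both replicates (-6.95) was -10.8, -12.9 and 14.0 with the 3 windows, -1.11 by any base of a peak, -10.0 for overlapping candidates and -10.7 for the 10000 strongest of each. The cluster difference (-16.7) ranged from -4.12 to 2.90 with 1 replicate left out, and was 2.90 without replicate 3. The WGATAR difference (-16.8) was -0.616 in windows of 1 kb on either side of the TSS, where nearly all promoters have the word, and 7.07 around pooled summits. The median signal difference (-3.68) kept its sign with both other windows, at -7.15 and -3.86. The cause of the turns was not tested. The unknown depth and scale limit what a weak candidate shows. No paired analysis was possible because there is 1 group.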
